A study of Mus musculus with 12 samples.

Results

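The genes described are 10 markers of the cells that line blood vessels: Pecam1, Cdh5, Kdr, Tek, Emcn, Eng, Esam, Cldn5, Flt1 and Myct1. They were picked by symbol from 23282 entries of the count tables, 9 as known markers of blood endothelium and Myct1 for its high level in the HF + AD group of these same samples, so that the difference between the groups is given for them as a description, without a p. Skin RNA had been taken from 5 AD mice and 7 HF + AD mice, with 1 library per mouse, and sequenced from the 3′ ends of mRNA. All 12 mice were wild-type male C57BL/6J mice, 5 weeks old when they arrived, and AD-like lesions had been induced in all of them with 0.5% 2,4-dinitrochlorobenzene (DNCB, a contact sensitizer) on the dorsal skin 3 times a week for 6 weeks. The HF + AD mice, labelled AD+OB by the submitters, were also fed a high-fat diet (60 kcal% fat) for 10 weeks in all, of which 4 came before DNCB, whereas the AD mice received the standard diet. Both groups received distilled water by mouth as the vehicle of a treatment not analysed here. Untreated skin was not analysed here either, so that every value below comes from DNCB-treated skin. The comparison asks how the endothelial transcripts of AD-like skin differ with the high-fat diet.

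Blood endothelium forms the inner wall of every vessel of the dermis, controls what passes from blood to tissue, and is the layer that leukocytes cross on their way into inflamed skin. Its cells are held together by junction proteins, and their growth and survival depend on receptors for vascular endothelial growth factors (VEGF) and angiopoietins. The VEGF receptors differ in task: the kinase encoded by Kdr carries most of the growth signal, while the product of Flt1 binds VEGF tightly and signals weakly, so that it also acts as a decoy. The skin holds few endothelial cells beside keratinocytes, hair follicles and fibroblasts, and in RNA of whole skin fewer endothelial cells and less of a transcript per cell cannot be told apart.

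Levels are given in CPM, which are counts per 1000000 counts of the library, after scaling of the total by TMM, and group means on the log2(CPM + 1) scale with the SD over mice. The libraries stood apart by group before any gene was compared. Each held 9746937 to 11688979 counts in the AD group and 10726845 to 13462434 in the HF + AD group, but genes were at 0 in AD more often than such totals would give. Expressed as an estimated number of counts per molecule, this was 12.6 to 34.1 in the AD libraries and 4.01 to 7.55 in the HF + AD libraries, and 13100 to 15063 against 15522 to 16677 genes were detected. The estimate rises with fewer RNA molecules and also with larger differences between the mice of a group, and these cannot be told apart here. Each of the 5 AD libraries correlated better with the HF + AD libraries (median r across genes 0.891 to 0.943) than with its own group (0.881 to 0.919). AD mice 1 and 2 had the most counts per molecule, and values without them are given beside the results for the 10 genes. For the ligands, receptors and called vascular genes such values are given where they turned a direction or ended a call. For the other genes named, among them those of other cells, they are not given. Of the 1303 genes called with all mice, 606 were also called without AD mice 1 and 2. Summed over the 10 genes, 41.8 to 87.9 molecules were estimated per AD library and 135 to 517 per HF + AD library. A count of 0 allows up to 3 counts, or 0.265 to 0.310 CPM per AD library, and for counting error only, as no molecular identifiers are described. In molecules the limit is wider, since 3 molecules over the 5 AD libraries would be 0.988 CPM, and a fold change against a group at 0 is set against that level.

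The 10 genes had unequal fold changes. Cdh5, Kdr and Myct1 were higher in HF + AD skin, by 2.96-fold, 2.09-fold and about 15.5-fold, while Pecam1, Tek, Emcn, Eng, Esam, Cldn5 and Flt1 had log2 fold changes of -0.36 to 0.47. All 10 passed the filter on low counts, Myct1 through its counts in the HF + AD libraries. In the fit across 14163 genes, 3 of the 10 were called higher and 0 lower at an adjusted threshold of 0.05, beside 4.43% of all genes called higher and 4.77% called lower. The count was 0 when HF + AD mouse 1 or 2 was left out, and 1 when AD mouse 2 or HF + AD mouse 7 was. Nothing is read from that count, since this contrast was known when the genes were picked. For Kdr and Myct1 every HF + AD mouse was above every AD mouse, a separation seen in 2.89% of all genes tested (in 2.56% every HF + AD mouse was below). The median log2 fold change of the 10 genes was 0.02, with 5 above and 5 below 0, and that of all genes tested was 0.023, with the middle 50% between -0.32 and 0.42. Without AD mice 1 and 2, 8 of the 10 were above 0 with a median of 0.60, beside 0.037 for all genes.

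**Figure D1:**
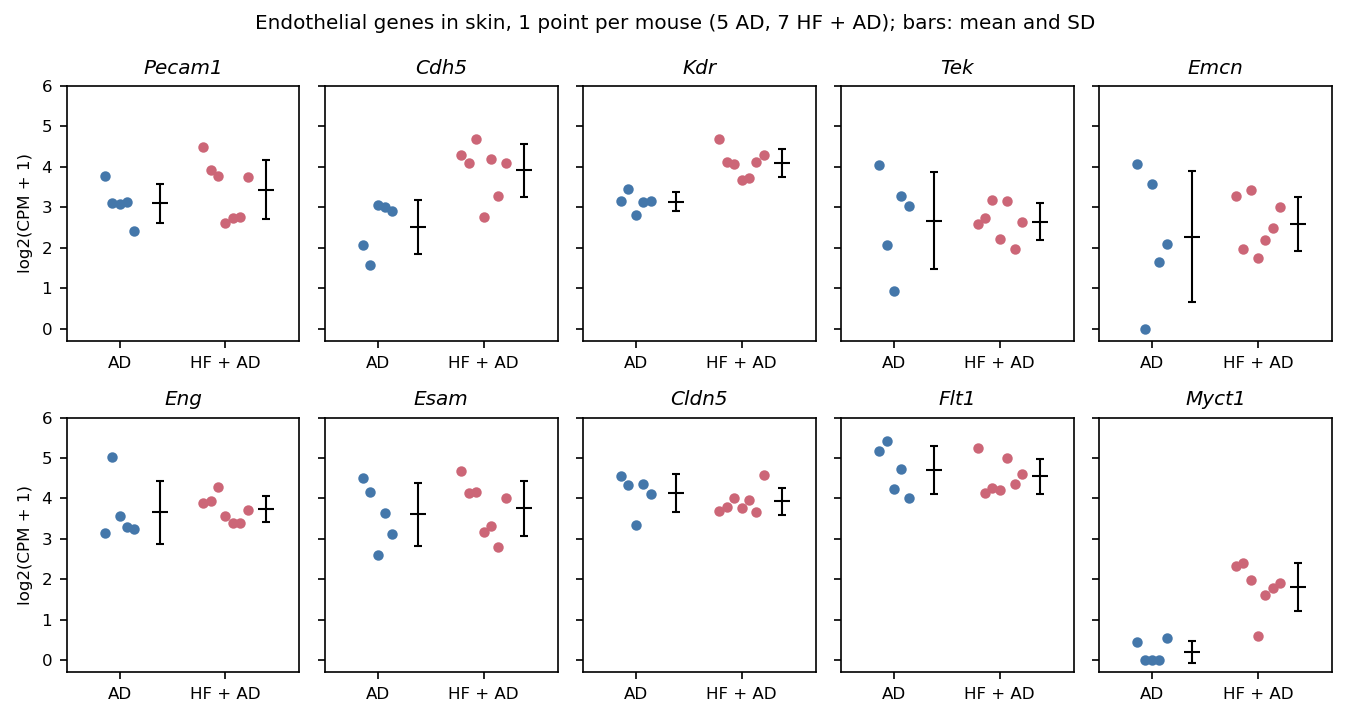
Level of each endothelial gene as log2(CPM + 1), with 1 point per mouse (blue, 5 AD; red, 7 HF + AD) and a black bar for the mean and SD. The points of the groups are apart for Kdr and, narrowly, for Myct1 (6 counts in the lowest HF + AD mouse, 5 in the highest AD mouse). They are nearly apart for Cdh5, with 6 of 7 HF + AD mice above the AD mice, and overlap for the other 7 genes.

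Kdr, which encodes VEGF receptor 2 (chr5:75932827-75978458, minus strand, GRCm38), had 7.89, 10, 6.05, 7.78 and 7.87 CPM in AD mice 1 to 5. In the HF + AD mice it ranged from 11.7 to 24.6 CPM with a median of 16.4. The lowest HF + AD mouse was thus above the highest AD mouse. The mean log2(CPM + 1) was 3.14 ± 0.23 (SD, n = 5) in AD and 4.10 ± 0.34 (SD, n = 7) in HF + AD, and the log2 fold change was 1.06 ± 0.27 (SE). It was 1.19 without AD mice 1 and 2. The AD values rested on an estimated 2.55 to 6.95 molecules and those of HF + AD on 17.4 to 75.0.

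Flt1, which encodes VEGF receptor 1 (chr5:147561604-147726011, minus strand), differed between the groups by less than the spread within them. It had 35.0, 41.4, 17.8, 25.4 and 15.1 CPM in AD mice 1 to 5, and 16.5 to 36.9 CPM with a median of 19.3 in HF + AD mice. The groups overlapped throughout, and no HF + AD mouse was above the highest AD mouse. The log2 fold change was -0.21 ± 0.28 (SE), and 0.26 without AD mice 1 and 2, which held the highest AD values. The number of Kdr reads per Flt1 read, which does not depend on the library total, was 0.225 to 0.521 in AD and 0.396 to 1.0 in HF + AD, where 6 of 7 mice exceeded the AD range. This ratio holds the same Kdr counts as above and is no separate measurement of them.

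**Figure D2:**
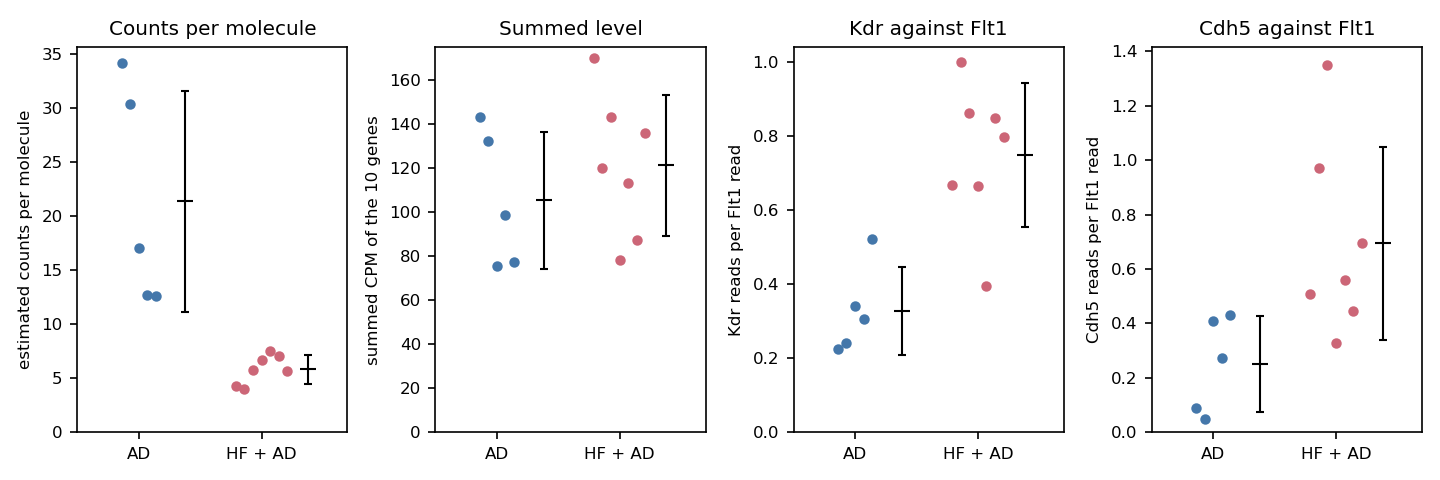
From left to right, per mouse with the mean and SD as black bars: estimated counts per molecule, summed CPM of the 10 endothelial genes, Kdr reads per Flt1 read and Cdh5 reads per Flt1 read (blue, 5 AD; red, 7 HF + AD). Counts per molecule do not overlap between the groups (12.6 to 34.1 and 4.01 to 7.55), the summed levels do, and in each ratio 6 of 7 HF + AD mice exceed the AD range.

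Of the junction genes, Cdh5 differed most. It encodes VE-cadherin, the adhesion protein of the endothelial adherens junction (chr8:104101625-104144511, plus strand). AD mice 1 to 5 had 3.17, 1.97, 7.27, 6.98 and 6.51 CPM, and HF + AD mice 5.83 to 24.7 with a median of 16.2. HF + AD mouse 4, the lowest, lay among the AD mice and the other 6 were above all of them. The mean log2(CPM + 1) was 2.52 ± 0.67 (SD, n = 5) in AD and 3.92 ± 0.66 (SD, n = 7) in HF + AD. The log2 fold change was 1.56 ± 0.42 (SE), and 1.15 without AD mice 1 and 2, which held the lowest values, and Cdh5 was then no longer called. The AD values rested on an estimated 0.625 to 6.24 molecules, with 1.03 and 0.625 in AD mice 1 and 2, and those of HF + AD on 10.1 to 58.8. Cdh5 reads per Flt1 read were 0.0475 to 0.431 in AD and 0.330 to 1.35 in HF + AD. Per Pecam1 read the groups overlapped more, with 0.248 to 1.5 and 0.865 to 3.08, and 2 of 7 HF + AD mice exceeded the AD range. An annotated antisense gene, Gm29682, overlaps Cdh5, and the strand setting of the counting is not given in the sources used here.

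Pecam1 encodes CD31, an adhesion molecule at endothelial cell borders that platelets and leukocytes also carry (chr11:106654217-106750628, minus strand). Its level was 12.8, 7.66, 7.47, 7.78 and 4.34 CPM in AD mice 1 to 5 and 5.13 to 21.6 CPM in HF + AD mice, with a median of 12.5. Only 2 HF + AD mice were above all AD mice, and the log2 fold change of 0.47 ± 0.41 (SE) was close to its error. Without AD mice 1 and 2 it was 0.77 ± 0.45 (SE).

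Esam, an adhesion molecule of endothelial tight junctions (chr9:37528078-37538319, plus strand), had 21.7, 17.0, 5.05, 11.4 and 7.69 CPM in AD mice 1 to 5. HF + AD mice had 5.95 to 24.6 CPM with a median of 15.1, and 1 of them was above all AD mice. The spread within either group was larger than the difference, with a log2 fold change of 0.13 ± 0.40 (SE), or 0.77 ± 0.42 (SE) without AD mice 1 and 2.

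Cldn5, the claudin that seals endothelial tight junctions (chr16:18776847-18778262, plus strand), had 22.5, 19.0, 9.18, 19.4 and 16.4 CPM in AD mice 1 to 5. HF + AD mice had 11.7 to 23.1 CPM with a median of 12.8. HF + AD mouse 7 was the highest mouse of all and the other 6 lay within the AD range. The log2 fold change was -0.25 ± 0.27 (SE), and -0.04 without AD mice 1 and 2. The 4 junction genes therefore had unequal fold changes, from -0.25 for Cldn5 to 1.56 for Cdh5.

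Among the remaining receptors and surface proteins, no HF + AD mouse was above the highest AD mouse. Tek encodes TIE2, the receptor of the angiopoietins (chr4:94739289-94874976, plus strand), and had 15.5, 3.21, 0.908, 8.75 and 7.14 CPM in AD mice 1 to 5 and 2.94 to 8.12 CPM, median 5.26, in HF + AD mice. The AD mice spread more widely than the HF + AD mice, with SDs of 1.20 and 0.45 on the log2(CPM + 1) scale, and the log2 fold change was -0.36 ± 0.54 (SE), or -0.02 without AD mice 1 and 2. The AD values rested on an estimated 0.529 to 7.82 molecules.

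Emcn encodes endomucin, a sialomucin of capillary and venous endothelium (chr3:137341067-137432185, plus strand). AD mice 1 to 5 had 16.0, 0, 10.9, 2.12 and 3.26 CPM, so that the lowest and the highest of all 12 mice were both AD mice. HF + AD mice had 2.35 to 9.78 CPM with a median of 4.57. The log2 fold change was -0.21 ± 0.77 (SE), and 0.05 without AD mice 1 and 2, which were those extremes. It was 0.46 without AD mouse 1 alone and -0.53 without AD mouse 2 alone. The difference in Emcn was smaller than the spread of the AD mice.

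Eng encodes endoglin, a co-receptor for BMP9 and TGF-β that is also found on some stromal and myeloid cells (chr2:32646595-32682669, plus strand). AD mice 1 to 5 had 7.89, 31.4, 10.8, 8.84 and 8.50 CPM, and AD mouse 2 was far above the other 4. HF + AD mice had 9.45 to 18.5 CPM with a median of 12.2. The log2 fold change was -0.09 ± 0.36 (SE) and turned to 0.43 ± 0.28 (SE) without AD mice 1 and 2. Fpgs overlaps Eng on the other strand and 3 small RNA genes lie on its own.

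**Figure D3:**
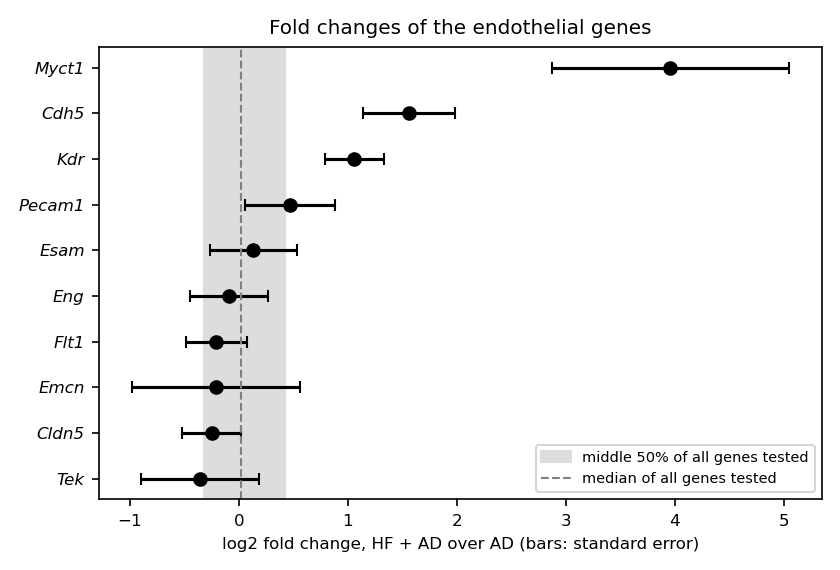
Log2 fold change of each endothelial gene, HF + AD over AD, from the fit across all genes, with the standard error as a bar. The shaded band is the middle 50% of all genes tested (-0.32 to 0.42) and the dashed line their median (0.023). Myct1, Cdh5 and Kdr lie above the band, Pecam1 just above its upper edge, Tek just below its lower edge and the other 5 within it.

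Myct1 had the largest fitted fold change of the 10 and the fewest reads. It encodes a small membrane protein named as a target of MYC and used as an endothelial marker (chr10:5593775-5606904, plus strand). The counts were 4, 0, 0, 0 and 5 in AD mice 1 to 5 and 52, 55, 41, 6, 22, 30 and 37 in HF + AD mice 1 to 7. All HF + AD mice were above all AD mice, but HF + AD mouse 4, with 6 counts or 0.522 CPM, was hardly above AD mouse 5, with 5 counts or 0.452 CPM. The mean level was 0.163 CPM in AD and 2.72 CPM in HF + AD, a ratio of 16.7. The fitted log2 fold change was 3.96 ± 1.09 (SE), and 4.06 without AD mice 1 and 2. The 4 and 5 counts of AD mice 1 and 5 were fewer than these libraries held per molecule on average (34.1 and 12.6), so that they cannot be told from 1 molecule each, against an estimated 0.901 to 13.7 molecules in HF + AD. The measured AD mean was below the 0.988 CPM that 3 molecules over the AD libraries make up. The size of the fold change of Myct1, and with it its rank among the 10, is therefore poorly fixed by these libraries. The separation of its groups is poorly fixed too, since AD mouse 5 rested on an estimated 0.397 molecules and HF + AD mouse 4 on 0.901.

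The stretches before the start sites of Myct1 and Kdr, whose levels in all HF + AD mice were above those in all AD mice, and of Flt1, whose levels overlapped, are shown to set the VEGF receptors side by side with the gene of the largest fitted fold change. They are the 250 bases upstream of the RefSeq start (GRCm38.p6), written 5′ to 3′ in the direction of the gene: chr10:5593478-5593727 (plus strand) for Myct1, chr5:75978456-75978705 (minus strand) for Kdr and chr5:147726012-147726261 (minus strand) for Flt1. Capitals mark matches, on either strand, to the letters of 4 short motifs that factors known in endothelium can bind. For the ETS factors, which control many endothelial genes, AGGAAG was searched. The letters for the GATA factors, among them GATA2 of blood and vessel cells, were AGATAA. Forkhead factors, some of which pair with ETS factors in endothelium, were searched as GTAAACA. For SOX factors, such as SOX17 of arteries, the letters were AACAAT. No match of 1 motif overlapped a match of another.
Myct1: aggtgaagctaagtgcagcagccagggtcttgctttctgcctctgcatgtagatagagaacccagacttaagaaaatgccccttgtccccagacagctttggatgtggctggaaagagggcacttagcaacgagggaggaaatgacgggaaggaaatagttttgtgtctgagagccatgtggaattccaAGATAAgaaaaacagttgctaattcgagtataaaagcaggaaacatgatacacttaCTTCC
Kdr: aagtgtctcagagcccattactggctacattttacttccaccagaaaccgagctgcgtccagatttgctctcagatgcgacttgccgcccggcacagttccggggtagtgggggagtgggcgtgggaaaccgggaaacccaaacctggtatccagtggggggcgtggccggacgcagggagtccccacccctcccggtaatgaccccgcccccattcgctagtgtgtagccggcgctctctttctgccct
Flt1: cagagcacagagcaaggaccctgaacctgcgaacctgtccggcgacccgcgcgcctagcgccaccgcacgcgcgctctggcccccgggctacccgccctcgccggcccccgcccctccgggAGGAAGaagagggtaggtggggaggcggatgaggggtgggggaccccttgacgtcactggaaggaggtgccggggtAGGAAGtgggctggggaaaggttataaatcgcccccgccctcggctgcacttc
In Flt1 the ETS letters begin at bases -129 and -53 from the start. In Myct1 the GATA letters begin at base -61, and an ETS match on the other strand begins at base -5, the last of its 6 letters lying past the start and not shown. The Kdr stretch holds none of these letters, which says only that they are not in this window.

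Promoter windows of 300 bases, from 250 before to 50 after the start, were at hand for 7 of the 10 genes: Kdr, Tek, Emcn, Eng, Cldn5, Flt1 and Myct1. The ETS letters were found in 4 of the 7 (Emcn, Eng, Flt1 and Myct1), and in 35.4% of 32851 promoter windows of the same length. The GATA letters were found in Tek and Myct1 (11.2% of all windows), the SOX letters in Tek and Emcn (10.7%) and the forkhead letters in Myct1 (3.65%), past its RefSeq start. For Myct1 the 250 upstream bases end at 5593727, whereas GENCODE starts the gene at 5593775. All its matches, the forkhead letters among them, lie before that GENCODE start. Short matches of this kind are a description of the sequence, not of binding. Whether any of these letters bear on the levels was not tested. Pecam1, Cdh5 and Esam had no entry.

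Mice differed from each other within their group. AD mouse 1 had the highest AD level of 5 of the 10 genes and AD mouse 2 of 3. HF + AD mice 1 and 3 were highest in their group for 4 genes each, and HF + AD mouse 4 was lowest for 5. The summed level of the 10 genes was 75.4 to 143 CPM (median 98.4) in AD and 78.2 to 170 CPM (median 120.0) in HF + AD, and without Cdh5, Kdr and Myct1 it was 62.1 to 131 (median 83.6) and 59.7 to 123 (median 83.0). Without AD mice 1 and 2, the AD levels were 75.4 to 98.4 CPM (median 77.2), and without the 3 genes 62.1 to 83.6 (median 62.4). The summed levels overlapped in both cases. With the group means taken away, Pearson's r over the 12 mice for the 45 pairs of genes had a median of 0.306, from -0.485 (Emcn with Eng) to 0.830 (Pecam1 with Esam), and was below 0 for 8 pairs. These values share libraries and depth and are given as a description. Esam followed the other 9 most closely (median r 0.569) and Eng (0.0632) and Cdh5 (0.065) least.

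The genes most like the mean of the 10 in this within-group pattern, out of 13184 others with a mean count of at least 20, were Ccl8 (r = 0.965, rho = 0.937), Pi16 (0.946, 0.958), Pla2g7 (0.925, 0.958), Mmp13 (0.923, 0.888) and C4a (0.921, 0.888), over 12 mice. They were picked for the highest r out of 13184 genes over 12 mice, so that high values follow in part from the choice. Within HF + AD, mice 1, 2, 3 and 7 had the highest summed levels of the 10 genes and the most estimated molecules. Within AD, mice 1 and 2 had the highest summed levels and the fewest estimated molecules. The part of depth in this pattern was not tested. Ccl8 encodes a chemokine and Mmp13 a collagenase. C4a and C4b are near-identical and their counts are uncertain. Of these 5 genes, Mmp13 was called between the groups, higher in HF + AD with a log2 fold change of 2.52 ± 0.62 (SE) and an adjusted p of 0.0203 (edgeR).

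The other genes of vessels were followed in 9 lists by role, together 94 genes, of which 88 were tested. In edgeR's quasi-likelihood test, 4 of the 88 rose (Ece1, Pgf, Ackr1 and Cspg4), 1 fell (Lyl1) and 83 did not pass, beside the 4.43% of all genes called higher and 4.77% called lower. Pgf and Ackr1 passed the filter through the HF + AD libraries. With at least 10 counts in every mouse, 2 rose (Ece1 and Cspg4). Only 1 rose without AD mouse 2, without HF + AD mouse 1, 2, 3 or 7, or with mice blocked by replicate number. The median log2 fold change of the 88 was 0.16, with 52 above 0. At an unadjusted p under 0.05 there were 11 higher and 5 lower, where 12.3% and 12.8% of all genes tested were.

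**Figure D4:**
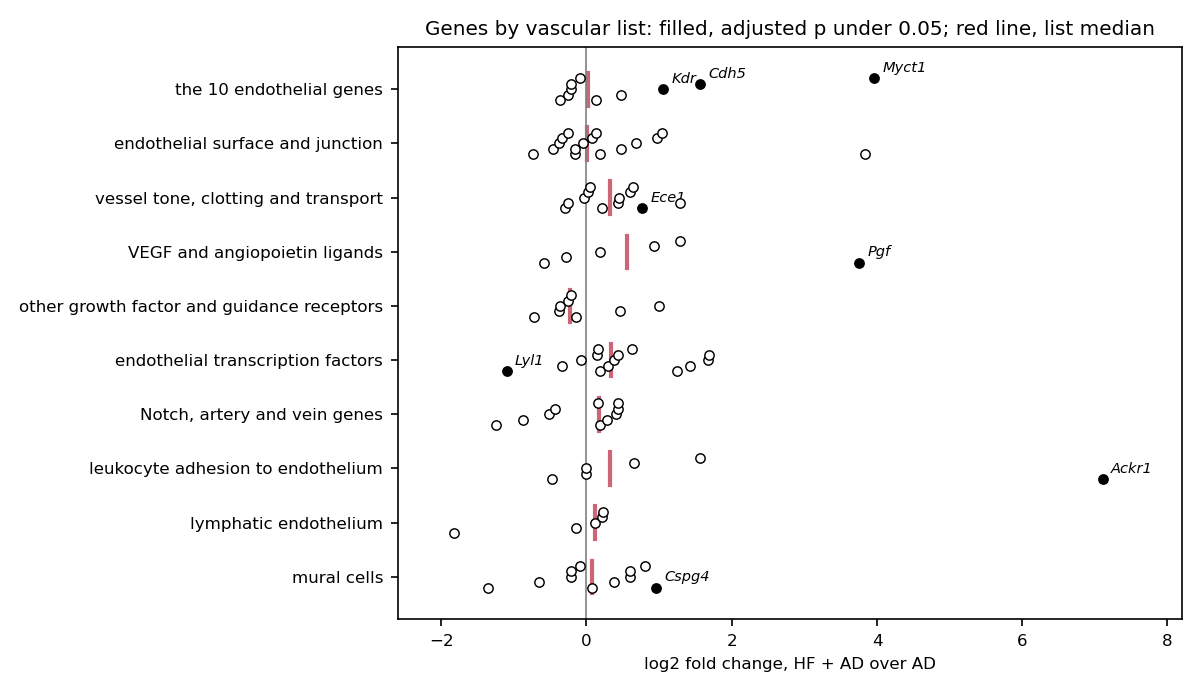
Log2 fold change (HF + AD over AD) of each tested gene, by list, with called genes filled and named and the median of each list as a red line. Of the genes outside the 10, 5 are filled, and the medians lie between -0.23 and 0.56. The point of Ackr1 is a fitted value against 0 counts in AD and no measure of size.

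Of the ligands that these receptors bind, Pgf was called. It encodes placental growth factor, which binds the product of Flt1 and not that of Kdr. It had 0 to 1.09 CPM in AD and 0.697 to 15.2 CPM in HF + AD, where 6 of 7 mice exceeded the AD range, and a log2 fold change of 3.75 ± 1.11 (SE, adjusted p = 0.0426, edgeR). Over the alternatives its adjusted p ranged from 0.00147 to 0.143 and was below the threshold in 9 of 20, and the log2 fold change was 3.11 to 4.82 with 1 mouse left out. Pgf had 0 reads in 3 of 5 AD mice and passed the filter through the HF + AD libraries, and its AD mean of 0.341 CPM is below the 0.988 CPM of 3 molecules, so that the size of its fold change is poorly fixed too. Vegfa, the main ligand of Kdr, was not called, with 5.07 to 68.2 CPM in AD and 26.3 to 66.4 in HF + AD and a log2 fold change of 0.18 ± 0.41 (SE, adjusted p = 0.834), or -0.11 without AD mouse 2. Nor were Vegfb (-0.28 ± 0.23) and Vegfd (listed as Figf, -0.59 ± 0.19, adjusted p = 0.061), although Vegfd, a ligand of the lymphatic receptor Flt4, was below all AD mice in 6 of 7 HF + AD mice. Vegfd was called in 2 of 22 alternatives, DESeq2's Wald test (-0.60, adjusted p = 0.0253) and edgeR without HF + AD mouse 5 (-0.66, adjusted p = 0.0429), over a range of adjusted p from 0.0253 to 0.199. The TIE2 ligands Angpt1 and Angpt2 had log2 fold changes of 0.93 ± 1.24 and 1.29 ± 0.55 (SE) and were not called either. Angpt2 was above all AD mice in 6 of 7 HF + AD mice and below all of them in 1. Angpt1 was at 0.59 to 2.02 with 1 mouse left out, the highest value without AD mouse 4, and at 1.81 with limma-trend. Vegfc and Angpt4 had too few counts to be tested, with at most 1.20 and 0.308 CPM in any mouse.

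None of the 8 other growth factor and guidance receptors was called, with 1 higher and 1 lower at an unadjusted p under 0.05 (all genes, 12.3% and 12.8%). Flt4, the VEGF receptor of lymphatic vessels, had a log2 fold change of -0.21 ± 0.57 (SE), which turned to 0.58 without AD mouse 1 and likewise without AD mice 1 and 2. The VEGF co-receptors Nrp1 and Nrp2 had -0.14 ± 0.18 and -0.25 ± 0.12 (SE), and Nrp1 0.15 without AD mice 1 and 2. Acvrl1 and Bmpr2, receptors that work with endoglin, had 1.00 ± 0.67 and -0.37 ± 0.15 (SE). Acvrl1 was at 0.69 to 1.64 with 1 mouse left out, the highest value without AD mouse 2. Aplnr, the apelin receptor, had -0.72 ± 0.95, and the guidance receptors Plxnd1 and Unc5b had -0.38 ± 0.35 and 0.46 ± 0.18 (SE), or 0.00 and 0.24 without AD mice 1 and 2. The fold changes of this list thus lay on both sides of 0.

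Further from growth factor signalling, Ece1, which encodes the enzyme that activates endothelins, rose by a log2 fold change of 0.77 ± 0.19 (SE, adjusted p = 0.0218, edgeR), and was the 1 called of 12 genes of vessel tone, clotting and transport. It had 196 to 306 CPM in AD and 305 to 717 in HF + AD, and other cells of the skin express it too. Among 7 genes for leukocyte adhesion (6 tested), Ackr1, a chemokine-binding receptor of venules, had 0 reads in all 5 AD mice and 0 to 3.31 CPM in HF + AD mice. Ackr1 was called higher (adjusted p = 0.0351, edgeR). The HF + AD mean was 1.46 CPM, or 1.48-fold the 0.988 CPM that 3 molecules over the AD libraries make up. This ratio is no lower bound, since it leaves out the spread of the HF + AD mice. Over the alternatives its adjusted p ranged from 0.00299 to 0.183. Ackr1 passed the filter through 5 HF + AD mice, 2 of 7 being at 0, and was no longer tested when HF + AD mouse 1, 2, 3, 4 or 7 was left out.

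Of the genes for endothelial transcription factors, 14 were tested and Lyl1, a blood and endothelial factor, fell, with 24.3 to 52.9 CPM in AD and 9.55 to 27.7 in HF + AD (log2 fold change -1.10 ± 0.27 (SE), adjusted p = 0.0206, edgeR). Among 11 genes of mural cells, the pericytes and smooth muscle around vessels, Cspg4, which encodes the pericyte proteoglycan NG2, rose by 0.96 ± 0.27 (SE, adjusted p = 0.0331, edgeR) and was above all AD mice in 7 of 7 HF + AD mice. The adjusted p of Cspg4 over the alternatives ranged from 0.00842 to 0.104 and was below the threshold in 13 of 22. Without AD mice 1 and 2, which leaves 3 AD mice, Lyl1 had a log2 fold change of -1.09 (adjusted p = 0.051, edgeR), Pgf 3.03 (0.071) and Cspg4 0.68 (0.0653), and these and Ackr1 (0.0705), still at 0 in AD, were no longer called. Ece1 remained called, with 0.91 (0.0358). Pdgfrb, also of the mural list, was called higher in that fit. With all mice it was not called (0.60 ± 0.41 (SE), adjusted p = 0.391, edgeR).

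In edgeR's test no gene was called among 16 of the endothelial surface and junctions, 10 tested of the Notch, artery and vein list, and 5 tested of lymphatic endothelium, with 3, 1 and 0 higher and 0, 1 and 0 lower at an unadjusted p under 0.05 (all genes, 12.3% and 12.8%). The most abundant of them were Cd34 (log2 fold change -0.38 ± 0.23 (SE)) and Plvap (0.97 ± 0.34), Jag1 (-0.43 ± 0.18) and Notch1 (0.43 ± 0.17), and Pdpn (0.21 ± 0.31) and Lyve1 (0.23 ± 0.37). Cd34 is also expressed by fibroblasts and follicle stem cells, Jag1 and Notch1 by keratinocytes, and Pdpn by stromal cells. Plvap, a protein of the fenestrae of capillaries, had 25.0 to 38.7 CPM in AD and 19.4 to 117 in HF + AD, where 5 mice were above and 1 below all AD mice. Other fits did call genes of these lists, some of them outside the rule for naming and chosen after their values were seen. DESeq2's Wald test called Icam2, Plvap and Gja5, and limma-trend called Icam2. With edgeR and 1 mouse left out, Jag1 was called without AD mouse 1, Notch1 without AD mouse 3, Icam2 without AD mouse 5 and Plvap without HF + AD mouse 4.

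Markers of other cells differed between the libraries too, and their part in the endothelial values was not tested. Genes of keratinocytes summed to 3050 to 5530 CPM in AD and 5460 to 9740 in HF + AD, with Krt5 (log2 fold change 0.81 ± 0.15 (SE), adjusted p = 0.00679, edgeR) and Krt14 (1.05 ± 0.27, adjusted p = 0.0248) called higher. These make up most of the sum, and the other 3 tested, Krt1 (0.12), Krt10 (-0.42) and Lor (-0.29), which mark differentiated layers, were not called. Hair shaft genes summed to 1410 to 2640 and 2390 to 4080 CPM, where Krt31 (1.14 ± 0.18) and Krt86 were called and Krt81, the most abundant, was not. Skeletal muscle genes summed to 974 to 2040 and 597 to 1570 CPM, with Acta1 called lower (-0.72 ± 0.22) and Myh1 at the same log2 fold change not called. Fibroblast genes (Col1a1, Col1a2 and 5 others) were at 3290 to 9920 and 3320 to 10300 CPM and adipocyte genes (Cidec, Cfd and 4 others) at 22.1 to 203 and 15.7 to 210 CPM, with 0 of 7 and 0 of 5 tested genes called. Of all genes tested, 4.43% were called higher and 4.77% lower, so that 0 calls in lists this short tell little.

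Blood cells bear on Pecam1 and Eng, which some of them express. Red cell genes (Hba-a1, Hbb-bs and others, some of them near-identical) summed to 132 to 2770 CPM (median 237) in AD and 190 to 1690 CPM (median 1050) in HF + AD, with 0 of 8 called. Leukocyte and macrophage genes (Mrc1, Fcgr3 and 6 others) summed to 27.2 to 104 CPM (median 47.6) and 44.0 to 151 CPM (median 120.0), with 6 of 8 log2 fold changes above 0, a median of 0.93 and 0 of 8 called. Beside these counts, 4.43% of all genes tested were called higher and 4.77% lower. Platelet genes summed to 36.4 to 79.3 and 69.4 to 179 CPM, most of it from Gp1bb, which was called higher (1.20 ± 0.26 (SE), adjusted p = 0.011, edgeR), while Gp1ba was called lower (-2.04 ± 0.63, adjusted p = 0.0498) and Itga2b (0.03 ± 0.44) and Pf4 (2.19 ± 0.77, adjusted p = 0.0815) were not called, with Pf4 above all AD mice in 6 of 7 HF + AD mice. The defining platelet genes Ppbp and Gp9 were at 0 in all AD mice and reached 1.08 and 0.385 CPM in HF + AD, where 2 and 4 of 7 mice were at 0, and Gp6 was at 0 in all 12 mice. Whether these cells carried part of the Pecam1 or Eng reads was not tested.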

How the data were processed

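Per the labels, RNA from the skin of 5 AD and 7 HF + AD mice was made into QuantSeq 3′ libraries, 1 per mouse. The deposited values are raw counts, listed by symbol for 23282 entries (35 symbols are listed more than once, none of the genes described). The submitters' processing notes name Bowtie2, bedtools and mm10, without versions. The annotation, strand setting and handling of duplicate reads are not given in the sources used here, and where they matter they could shift counts of overlapping genes. Whether the mice were housed or extracted together is not given, so p-values measure the spread between these mice.

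HF + AD was compared with AD with edgeR 4.0.16 in R 4.3.3 (TMM, filterByExpr, quasi-likelihood test, threshold 0.05 after Benjamini-Hochberg adjustment over the 14163 genes that passed). TMM factors were 0.944 to 1.04. CPM use TMM-scaled totals, and the pseudocount on the log scale was 1. The members and lists were chosen with earlier results of these data known, and the vascular and other-cell lists were written by role. The rule for naming was all 10 genes, all ligands and receptors, called genes of each vascular list (at most 3) or else its 2 most abundant, and the 2 most abundant of each list of other cells; called genes of the latter were named after their values were seen. Counts per molecule were estimated in each library from how often a gene was at 0 although the rest of its group predicted 10 to 200 counts. Positions came from GENCODE M21 on GRCm38 (mm10) and promoters from RefSeq.

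Alternatives were DESeq2 1.42.0 (size factors and Wald test), limma 3.58.1, library totals, other filters, a replicate block, counts divided by counts per molecule, a GC correction in 20 bins, a pseudocount of 0.1 and each mouse left out. Leaving out AD mice 1 and 2 together was added after the data were seen. The fit was tested on simulated data. Python 3.11.15 with NumPy 2.4.6, pandas 2.3.3 and matplotlib 3.10.9 was used for summaries. 1 gene of the keratinocyte list was not analysed here.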

Additional observations from a re-analysis of the deposited data

Results flagged for a closer look

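Each of the 10 genes was searched in each group for a mouse far from the others, 20 searches in all, in which chance alone gives about 1 flag, and 2 mice were found. For Eng, AD mouse 2 had a log2(CPM + 1) of 5.02 (303 counts, 31.4 CPM) where the next AD mouse had 3.56, a gap of 0.781 of the group's range. AD mouse 2 was among the libraries with the most counts per molecule. For Cldn5, HF + AD mouse 7 had 4.59 (307 counts, 23.1 CPM) where the next had 4.01, a gap of 0.622 of the range. The cause of either value was not tested.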

How the results depend on the processing

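The calls of Cdh5, Kdr and Myct1 depended on single mice. They are no test of these genes, since this contrast was known when the genes were picked, and Myct1 was picked for it. Leaving out each mouse in turn gave 0 to 3 of the 10 genes called higher and 0 to 0 lower, 1 to 5 of the other vascular genes higher and 1 to 2 lower, and 308 to 775 of all genes higher and 331 to 766 lower. None of the 10 genes was called once HF + AD mouse 1 or 2 was left out, only Kdr without AD mouse 2 or HF + AD mouse 7, Cdh5 and Kdr without AD mouse 3 or 4, and Kdr and Myct1 without HF + AD mouse 3. HF + AD mice 1 and 2 had the fewest counts per molecule of all libraries (4.269 and 4.011). Whether this bears on the calls was not tested. The other vascular genes called higher numbered 1 when AD mouse 2 was left out, and likewise for HF + AD mouse 1, 2, 3 or 7. All genes called lower numbered 371 without AD mouse 2, and 362, 331 and 403 without HF + AD mouse 1, 2 and 4. The number called higher was 324, 308 and 391 without the same 3 HF + AD mice.

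Replicate numbers did not pair the mice (r of same-numbered mice 0.0668, -0.0293, -0.106, 0.0724 and 0.0392), and only number 4 correlated best with its own number. With the replicate block, 100 genes were higher and 92 lower, 0 of the 10 genes were called, Aplnr turned from -0.72 to 0.09, Angpt1 moved from 0.93 to 2.44, and of the other vascular genes 1 was higher (Ece1) and 0 lower. DESeq2's Wald test, which took in 18605 genes and 94 of the vascular ones, gave 1151 genes higher, and 7 other vascular genes higher and 2 lower. With at least 10 counts in every mouse, 2 other vascular genes were higher, and with counts divided by counts per molecule also 2, and in both Myct1 was not tested and Cdh5 and Kdr were called. Without AD mice 1 and 2, an alternative added after the data were seen, Kdr and Myct1 were called, 366 of all genes were lower, and of the other vascular genes 2 were higher and 0 lower. The cause was not tested. The share of calls that were higher was 48.1%, 59.1% with library totals alone and 37.4% with the GC correction. The median log2 fold change of all genes was 0.154 with limma-trend, 0.144 with the block and 0.116 without a filter.

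Over all alternatives the log2 fold change was 1.15 to 1.72 for Cdh5, 0.94 to 1.19 for Kdr and 3.2 to 4.74 for Myct1, and Pecam1 stayed above and Cldn5 below 0. The fold changes of Tek, Emcn, Eng, Esam and Flt1 changed sign in 3, 6, 5, 3 and 1 of the alternatives in which they were tested. Ece1 was called in 21 of 22, Lyl1 in 20 of 22, Cspg4 in 13 of 22 and Ackr1 in 8 of 15. With a pseudocount of 0.1 the difference in mean level of Myct1 was 3.68 in place of 1.61. An estimated 41.8 to 87.9 molecules per AD library stood behind the 10 genes, and whether depth or the spread between mice kept the other 7 from being called was not tested.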
